A study of Mus musculus with 2 samples.

Results

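The nuclear-encoded subunits of the respiratory chain and of ATP synthase are the members described here. They are the rows of the count tables whose gene symbol begins with Ndufa, Ndufb, Ndufc, Ndufs, Ndufv, Uqcr, Cox4i, Cox5, Cox6, Cox7, Cox8 or Atp5, without pseudogenes and without the Ndufaf assembly factors, together with Sdha, Sdhb, Sdhc and Sdhd. The rule gave 85 of the 32285 genes listed, of which 36 belong to complex I, 4 to complex II, 8 to complex III, 20 to complex IV with Ndufa4 and Ndufa4l2 counted there, and 17 to complex V. They were set beside the 13 protein-coding genes of the mitochondrial genome, whose symbols begin with mt-. The study compared No-Touch vein grafts, a graft taken with the tissue around the vein left on it, with conventional vein grafts in C57BL6/J mice of 10 to 12 weeks. Each kind of graft gave 1 single-cell library, digested with papain and then with collagenase I and dispase II, and sorted for live nucleated cells. The samples are titled as cells without CD45, the surface antigen of leukocytes, while the protocol lists gates with and without CD45 or with tdTomato and does not say which was used here. How many animals and grafts were pooled, the time after grafting and the donor vein are not stated, and the labels name the droplet kit as 10x 3' v2 or V3 without saying which library had which. With 1 library per group no difference has a replicate check, so no test was run and no p-value is given.

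The respiratory chain passes electrons from NADH (complex I) and succinate (complex II) through ubiquinone to complex III, cytochrome c and complex IV, where oxygen is reduced, and the proton gradient this builds drives ATP synthase, complex V. Complexes I, III, IV and V are built from proteins of both genomes, while complex II is coded in the nucleus alone. Several subunits of complex IV exist as isoforms that tissues use differently, among them Cox4i2 and Ndufa4l2, which are known from cells at low oxygen and from the lung and vessel wall.

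Promoter sequences are shown for 4 members on which the results turn. Sdhd was at least 1.5 times higher in the No-Touch library in all 7 classes compared, and Ndufa1 and Ndufb3 in 6 of them. Ndufa4 was taken because its level parted the mural cells. Being higher to any extent in every class was common, at 27 of 76 members. The sequences are RefSeq's for the mouse build GRCm38.p6, read in the direction of the gene and ending before the start of transcription in both RefSeq and GENCODE. Capitals mark a match to the palindromic NRF1 motif or the ETS motif CCGGAAG on either strand, and the YY1 motif AAGATGGC was searched too. The windows lie at chr9:50603850-50604099 (minus strand) for Sdhd, at chrX:37191239-37191488 (minus strand) for Ndufa1, at chr1:58586147-58586383 (plus strand) for Ndufb3 and at chr6:11907498-11907700 (minus strand) for Ndufa4.
Sdhd: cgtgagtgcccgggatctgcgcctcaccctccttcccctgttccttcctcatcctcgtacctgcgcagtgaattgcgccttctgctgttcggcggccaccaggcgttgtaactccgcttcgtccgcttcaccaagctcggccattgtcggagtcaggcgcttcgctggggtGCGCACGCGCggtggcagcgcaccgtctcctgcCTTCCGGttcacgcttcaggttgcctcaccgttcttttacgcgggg
Ndufa1: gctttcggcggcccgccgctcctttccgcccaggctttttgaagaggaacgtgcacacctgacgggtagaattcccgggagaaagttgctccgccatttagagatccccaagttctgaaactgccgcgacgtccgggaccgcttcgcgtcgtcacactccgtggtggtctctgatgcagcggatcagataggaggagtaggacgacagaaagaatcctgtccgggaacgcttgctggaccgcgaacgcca
Ndufb3: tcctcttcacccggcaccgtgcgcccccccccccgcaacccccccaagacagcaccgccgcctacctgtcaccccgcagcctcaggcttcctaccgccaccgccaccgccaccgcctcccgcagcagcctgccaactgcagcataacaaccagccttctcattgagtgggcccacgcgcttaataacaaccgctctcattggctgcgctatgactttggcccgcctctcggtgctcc
Ndufa4: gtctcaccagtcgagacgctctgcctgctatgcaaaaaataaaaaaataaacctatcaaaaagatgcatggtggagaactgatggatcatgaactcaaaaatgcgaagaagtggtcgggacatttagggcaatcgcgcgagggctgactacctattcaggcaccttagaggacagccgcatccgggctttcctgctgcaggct
Sdhd held 1 NRF1 and 1 ETS match in its window, and the windows of Ndufa1, Ndufb3 and Ndufa4 held none of the 3 motifs. RefSeq windows from 250 bases before to 50 bases after the start were found for 69 of the 85 members, 74 windows in all, against 32851 windows of all genes. NRF1 matches stood in 24.3% of the members' windows, against 4.60% of all windows. For ETS the shares were 23.0% and 8.86%, for YY1 13.5% and 2.75%, for the hypoxia-response core ACGTG 24.3% and 19.6%, and for the TATA box TATAAA 12.2% and 13.6%. A match is a match of letters only and does not show that a factor binds there.

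The No-Touch library held 12450 barcodes and 373319906 UMIs (unique molecule counts), and the conventional library 11899 barcodes and 200851272 UMIs. After filters on genes, UMIs, mitochondrial share and doublets 10435 No-Touch and 9485 conventional cells were kept, with medians of 27441 and 16227 UMIs, so the No-Touch library was the deeper. Of all barcodes 22 occurred in both libraries. Cells were put into classes by marker genes, none of them a member, and 7 classes with at least 50 cells in each library were compared, fibroblasts (7572 and 5788 cells), pericytes (244 and 527), smooth muscle (311 and 413), blood endothelium (366 and 754), lymphatic endothelium (287 and 309), Schwann cells (238 and 153) and neutrophils (87 and 362). T or NK cells (115) reached 50 cells in the No-Touch library alone and parathyroid cells (117) in the conventional library alone. In each of these 7 classes every marker of its own list was above 0 in both libraries. The gate used these same markers, so this follows nearly from the gate and is no check of the class names. Neutrophils go against a sort for cells without CD45, and Ptprc, which codes for CD45, stood at 1134 CPM (a gene's UMIs scaled to all UMIs of the class, 10000 CPM being 1% of them) in No-Touch and 696 CPM in conventional neutrophils. Dcn, a fibroblast gene, had 870 and 670 CPM in No-Touch and conventional neutrophils, against 10684 and 10468 CPM in fibroblasts, and whether free RNA or doublets gave these UMIs was not tested. The 5 parathyroid markers summed to 15.7 CPM in No-Touch and 242 CPM in conventional fibroblasts.

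The libraries also differed in transcripts that mark the sex of cells, which the labels do not give. Xist, the RNA of the silenced X chromosome, stood at 0.00 to 0.37 CPM over the 7 No-Touch classes, against 85.7 to 335 CPM over the conventional classes. The 4 Y-linked genes Ddx3y, Eif2s3y, Kdm5d and Uty together had 181 to 281 CPM in the No-Touch and 108 to 178 CPM in the conventional classes. Of No-Touch fibroblasts 7212 had a Y-linked UMI and no Xist UMI, 2 had Xist and no Y-linked UMI, and 21 had both. In conventional fibroblasts these counts were 3763, 946 and 580. The conventional library thus held cells of both kinds, and the ratios and counts below were also computed from cells with a Y-linked UMI and no Xist UMI in both libraries, a comparison added after seeing the data.

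As a group the members took a larger share of UMIs in the No-Touch library in 6 classes and a near equal one in Schwann cells, while the mt- genes mostly took a smaller one. In smooth muscle the members made up 1.89% (95% interval 1.88 to 1.90) of No-Touch UMIs and 1.53% (1.52 to 1.54) of conventional UMIs, a log2 ratio of 0.30. The pericyte markers in this class summed to 1965 CPM in No-Touch and 3388 CPM in conventional cells, and the part of that makeup in the members' share was not tested. Intervals of levels are exact Poisson intervals of UMI counts and cover counting error only, not the difference between animals. Fibroblasts had 1.23% in the No-Touch and 1.15% in the conventional library, a log2 ratio of 0.09. Blood endothelium had 1.26% and 1.12% (0.17), lymphatic endothelium 1.35% and 1.25% (0.12), and neutrophils 0.651% (0.628 to 0.675) and 0.459% (0.446 to 0.472), a ratio of 0.50. Pericytes had 1.27% and 1.21%, a ratio of 0.08 close to that of fibroblasts that turned to -0.03 with TMM scaling. Schwann cells, at 1.31% and 1.30%, had a ratio of 0.01 that turned to -0.07 with median-of-ratios scaling.

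The 13 mt- genes took 1.70% of No-Touch and 2.30% of conventional UMIs in fibroblasts, a log2 ratio of -0.44. They were lower in 6 of the 7 classes, by log2 ratios from -0.62 in Schwann cells (2.46% and 3.76%) to -0.13 in smooth muscle (3.30% and 3.62%). The limit of 10% mitochondrial UMIs had removed 204 No-Touch and 918 conventional cells, and without it the fibroblast ratio was -0.50. With a limit of 5% the ratio in Schwann cells was -0.26. Neutrophils had 0.575% and 0.498%, a ratio of 0.21. It became -0.57 once each cell was thinned to 3000 UMIs, which also left out the shallower cells and so kept 85 of 87 No-Touch and 133 of 362 conventional neutrophils. Thinning and the loss of these cells cannot be told apart in that value. Set against the members, mt- UMIs were 1.38 times as many in No-Touch and 2.00 times as many in conventional fibroblasts. Among cells with a Y-linked UMI and no Xist UMI the summed ratios in fibroblasts were 0.08 for the members and -0.44 for the mt- genes, and the 7 classes kept the same signs. Within the conventional library, fibroblasts with Xist and no Y-linked UMI had 1.08% members and fibroblasts with a Y-linked UMI and no Xist had 1.16%.

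**Figure D1:**
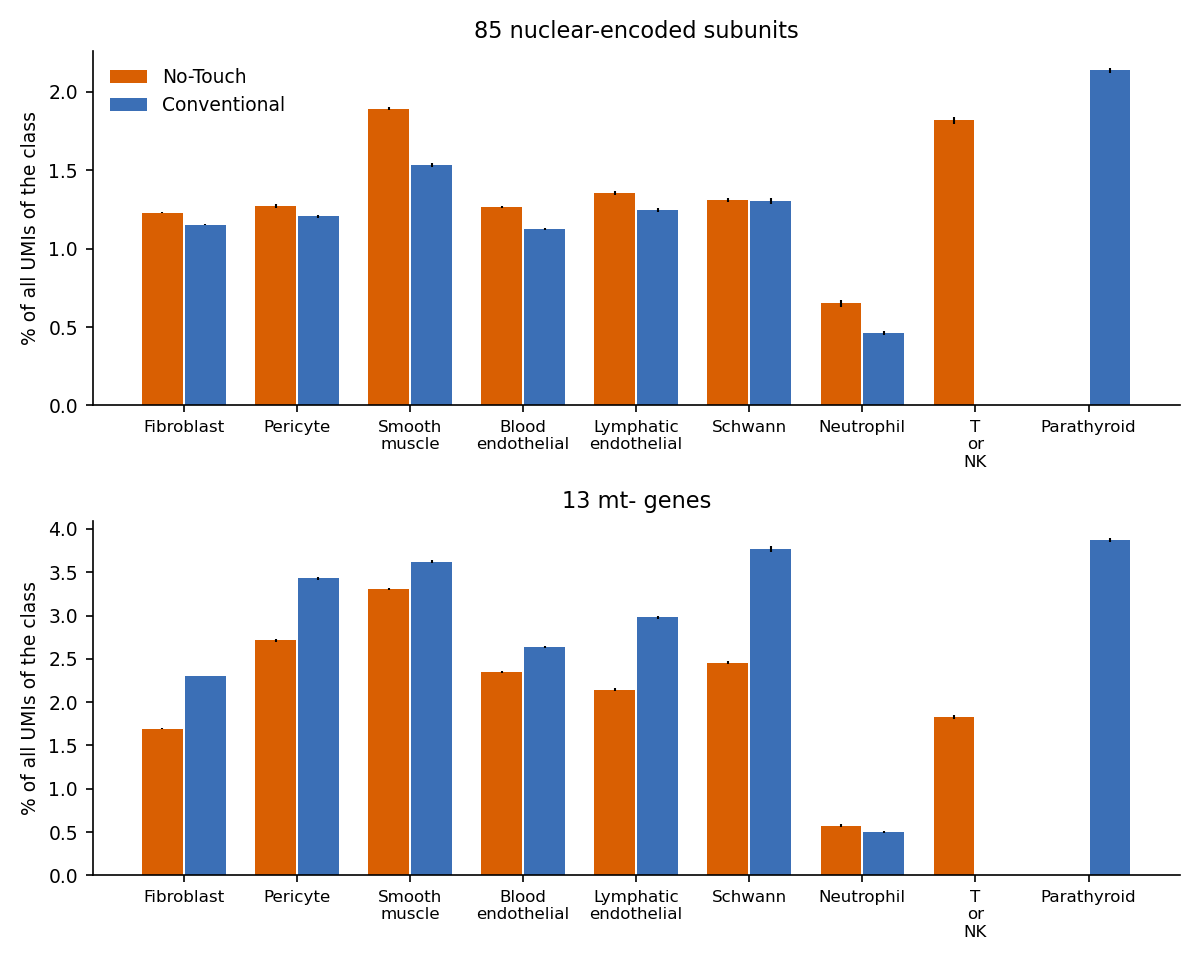
Share of all UMIs of a class, in percent, taken by the 85 nuclear-encoded subunits (top) and by the 13 mt- genes (bottom), with the No-Touch library in orange left of the conventional library in blue and exact 95% counting intervals as black lines. The subunits are higher in No-Touch smooth muscle (1.89% and 1.53%), while the mt- genes are lower in 6 of 7 classes, and a missing bar marks a class with under 50 cells in that library.

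Depth moved with both shares. Among fibroblasts the members took the largest share in the deepest cells, with 1.13%, 1.16%, 1.16% and 1.30% of No-Touch UMIs in cells of 3000 to 10000, 10000 to 20000, 20000 to 40000 and over 40000 UMIs, against 1.05%, 1.04%, 1.13% and 1.43% of conventional UMIs. The No-Touch share was the higher in 3 of these 4 ranges and the lower in the deepest. Smooth muscle kept the difference in each of 3 ranges, with 1.66%, 1.87% and 1.80% in No-Touch and 1.40%, 1.41% and 1.57% in conventional cells. Blood endothelium had 0.914%, 1.15% and 1.28% in No-Touch and 0.982%, 1.05% and 1.20% in conventional cells, so the order turned in its shallowest range. For the mt- genes the order turned in the shallowest range of these 3 classes, where No-Touch and conventional cells had 4.53% and 3.28% in fibroblasts, 5.23% and 4.03% in smooth muscle and 4.42% and 3.44% in blood endothelium. It did not turn in pericytes, which had 3.25% and 3.71% in that range. What depth contributes to the differences was not tested beyond these ranges and the thinned cells. In single fibroblasts the median share of members was 1.18% (quartiles 1.03 and 1.34) in the No-Touch and 1.05% (0.894 and 1.25) in the conventional library, with a median of 72 and 63 members detected, and the quartile ranges of the libraries overlapped.

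**Figure D2:**
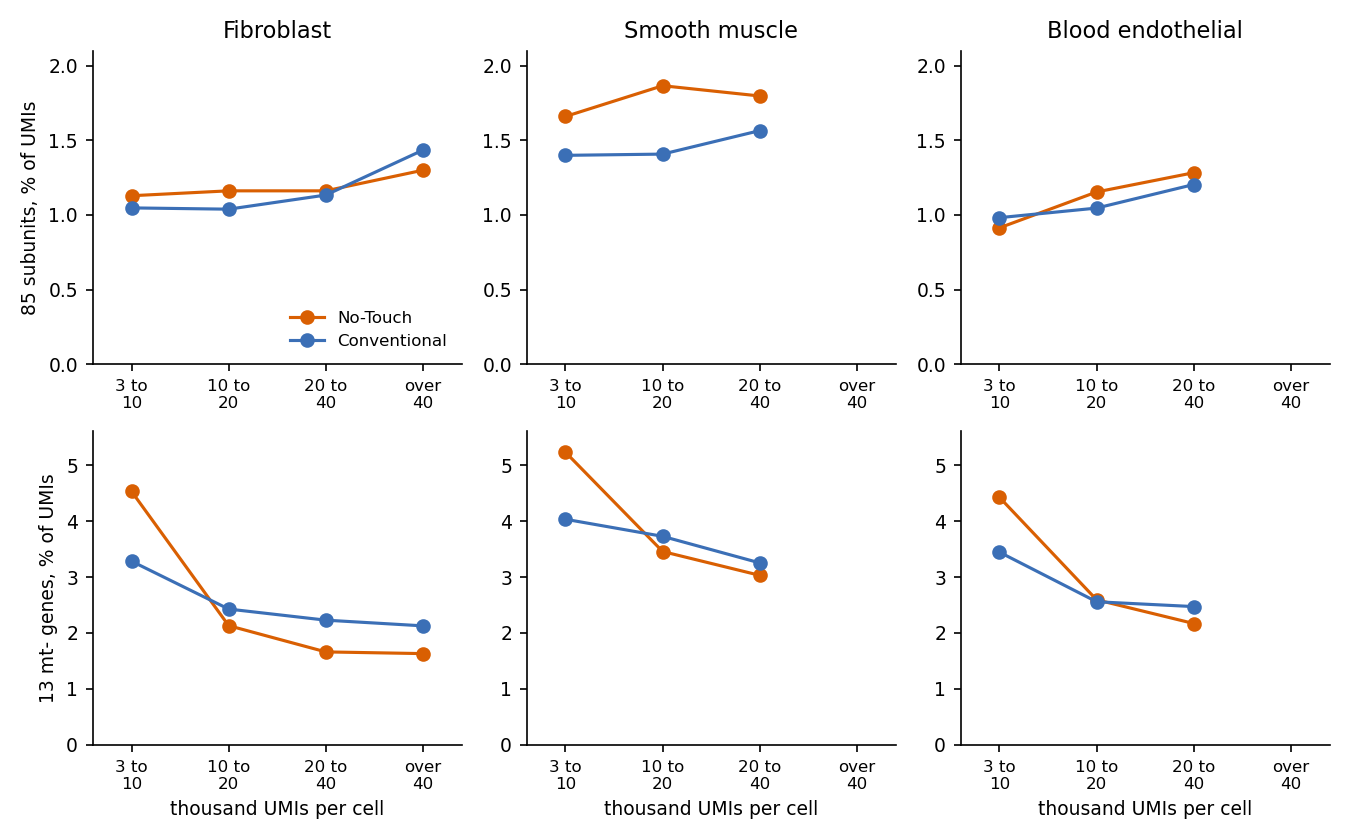
Share of UMIs taken by the 85 subunits (top) and by the 13 mt- genes (bottom), in percent, in cells grouped by their own UMI count (axis in units of 1000 UMIs), for fibroblasts, smooth muscle and blood endothelium, with No-Touch in orange and conventional in blue; ranges of under 20 cells are left out. Smooth muscle keeps the higher No-Touch share of subunits in each range shown, while the mt- share of cells with 3000 to 10000 UMIs is higher in No-Touch fibroblasts (4.53% and 3.28%).

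Single members were counted as higher or lower where CPM + 1 differed at least 1.5 times between the libraries, among members with at least 10 CPM in either. In fibroblasts 3 of 78 were higher and 0 lower, against 7.12% and 3.43% of all 8422 genes of that level. Pericytes had 2 of 80 higher and 0 lower (10.2% and 4.69% of all genes), lymphatic endothelium 4 of 77 and 0 (10.0% and 6.95%), and Schwann cells 5 of 78 and 2 (14.3% and 8.48%). Smooth muscle had 9 of 80 higher and 1 lower (14.2% and 10.5%), blood endothelium 8 of 77 and 0 (11.2% and 5.59%), and neutrophils 42 of 76 and 2 (35.7% and 14.3%). Outside neutrophils the share of members called higher was thus below that of all genes in every class at these settings. In blood endothelium, at 10.4% against 11.2%, it was close to that share. With a minimum of 50 CPM the shares were 8.22% and 8.20% in blood endothelium and 11.7% and 11.9% in smooth muscle. With TMM scaling smooth muscle had 5 higher and 2 lower, 6.25% higher against 11.3% of all genes. With cells thinned to 3000 UMIs it had 18 and 3, 22.5% higher against 21.1% of all genes. The median member had log2 ratios of 0.10 in fibroblasts, 0.11 in pericytes, 0.31 in smooth muscle, 0.19 in blood endothelium, 0.15 in lymphatic endothelium, -0.01 in Schwann cells and 0.65 in neutrophils. The medians of all genes in the same order were 0.06, 0.08, 0.06, 0.07, 0.00, 0.09 and 0.28.

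Across the 7 classes 27 of the 76 members counted in all of them lay above 0 in every class, a share of 35.5% against 17.2% of all 5558 genes so counted. Below 0 in every class were 3, among them Cox5a and Uqcrq, 3.95% of members against 6.89% of all genes. Over the 6 classes without neutrophils 28 of 77 lay above 0 in each (20.3% of all genes) and 6 below 0 in each (10.1% of all genes), among them Ndufa10, Ndufv1 and Atp5d. Sdhd was at least 1.5 times higher in all 7, as were 0.954% of all genes, and it was the 1 of 77 members so in the 6 classes (1.07% of all genes). With TMM scaling, median-of-ratios scaling, a 5% mitochondrial limit or a fibroblast cut of 0.3% no member passed in all 7. A minimum of 50 CPM would leave Sdhd counted in fibroblasts and smooth muscle alone. With the gate at 1 UMI Sdhd and Ndufa1 passed in all 7, and among cells with a Y-linked UMI and no Xist UMI Ndufa1 was the member that did.

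**Figure D3:**
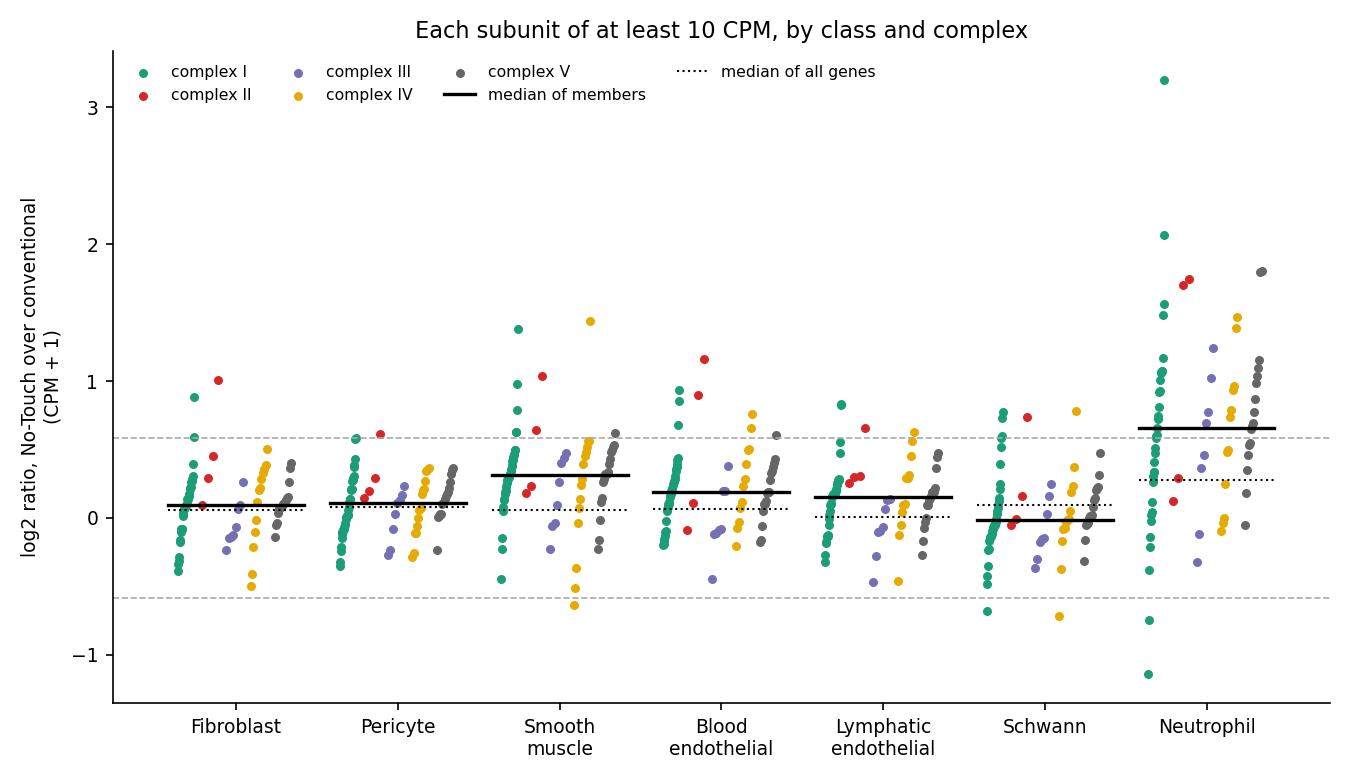
Log2 ratio of No-Touch over conventional CPM + 1 for each subunit with at least 10 CPM, by class, coloured by complex and ordered by value within a complex. Solid lines are the medians of the subunits, dotted lines those of all genes, and dashed lines mark 1.5 times. Most subunits lie between the dashed lines outside neutrophils, where the median reaches 0.65.

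Complex II showed the largest summed ratios of the 5 complexes, with log2 ratios of 0.41 in fibroblasts, 0.46 in smooth muscle, 0.33 in blood endothelium and 0.85 in neutrophils. The gene that differed most in each class was the membrane anchor Sdhd. Sdhd, which forms the ubiquinone site of the anchor with Sdhc, had 51.0 CPM in No-Touch fibroblasts and 24.8 CPM in conventional fibroblasts, a log2 ratio of 1.01. It had 56.7 and 27.1 CPM in smooth muscle (1.04), 38.4 and 16.6 CPM in blood endothelium (1.16), 48.5 and 30.4 CPM in lymphatic endothelium (0.66) and 25.4 and 16.3 CPM in pericytes (0.61). The counting intervals of the libraries did not overlap in these 5 classes, and in Schwann cells, at 37.2 (30.3 to 45.3) and 22.0 (14.7 to 31.5) CPM, they did. Neutrophils had 38.7 and 10.8 CPM from 18 and 11 UMIs. Under the 14 other settings Sdhd stayed above 1.5 times in each of them in fibroblasts, smooth muscle, both endothelia and neutrophils, while the lowest log2 ratios were 0.51 in pericytes and 0.52 in Schwann cells. The settings that change the minimum CPM cannot move the ratio of a single gene.

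Sdhc, the other anchor, had 43.5 and 22.9 CPM in blood endothelium (0.90), 103 and 65.7 CPM in smooth muscle (0.64) and 43.7 and 31.7 CPM in fibroblasts (0.45), and its ratio in pericytes was 0.14. The catalytic subunits differed less than Sdhd in every class. Sdha, the flavoprotein that oxidises succinate, had log2 ratios from -0.09 to 0.26, and Sdhb, its iron-sulphur partner, from -0.05 to 0.30. Sdhd lies at chr9:50596357-50603812 on the minus strand. No other gene typed as protein-coding, lincRNA, antisense or processed transcript overlaps its exons, and other types were not searched. No-Touch fibroblasts with a Y-linked UMI and no Xist had 51.2 CPM of Sdhd, against 25.2 CPM in conventional fibroblasts of that kind and 24.1 CPM in conventional fibroblasts with Xist and no Y-linked UMI.

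In complex I the small accessory subunits Ndufa1 and Ndufb3, both of the membrane arm, were higher in the No-Touch library in all 7 classes. Other members of complex I, such as Ndufa8 and Ndufc2, were too, but Ndufa1 and Ndufb3 passed 1.5 times in 6 classes, all but pericytes. Ndufa1, an X-linked subunit needed for assembly (chrX:37187588-37191163, minus strand), had 131 and 70.5 CPM in fibroblasts (0.88), 183 and 106 CPM in smooth muscle (0.79), 109 and 56.9 CPM in blood endothelium (0.93) and 134 and 75.2 CPM in lymphatic endothelium (0.83). Pericytes, at 119 and 79.4 CPM, had the smallest ratio, 0.58. Ndufb3 (chr1:58586384-58595964, plus strand) had 166 and 63.4 CPM in smooth muscle (1.38), 83.5 and 45.7 CPM in blood endothelium (0.86), 119 and 66.2 CPM in lymphatic endothelium (0.83), 105 and 62.8 CPM in Schwann cells (0.73) and 81.0 and 53.6 CPM in fibroblasts (0.59). Its smallest ratio was again that of pericytes, 0.43 at 69.8 and 51.5 CPM. Among cells with a Y-linked UMI and no Xist UMI the ratios of Ndufa1 ran from 0.63 to 2.12 and those of Ndufb3 from 0.54 to 1.36 over the 7 classes. Of the other X-linked members, Cox7b had ratios from 0.27 in pericytes to 0.97 in neutrophils and Ndufb11 from -0.08 in pericytes to 1.01 in neutrophils.

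The core subunits of complex I, which carry its flavin and iron-sulphur centres and are shared with bacteria, did not move together. Ndufv1, the NADH-oxidising flavoprotein, lay between -0.24 and -0.08 outside neutrophils. Ndufs7, an iron-sulphur subunit, had 89.0 and 143 CPM in Schwann cells (-0.68), and Ndufs8, another, had 52.5 and 34.7 CPM in pericytes (0.59). Among accessory subunits Ndufa12 had 59.5 and 78.2 CPM in fibroblasts (-0.39), Ndufb7 had 70.8 and 99.2 CPM in Schwann cells (-0.48) and Ndufa10 had 69.3 and 93.1 CPM in Schwann cells (-0.42).

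Complex III gave the smallest summed ratios of the 5 complexes in all 7 classes, from -0.11 in Schwann cells and -0.06 in fibroblasts to 0.24 in smooth muscle and 0.40 in neutrophils. Uqcrq, a small subunit beside cytochrome b, had 181 and 247 CPM in blood endothelium (-0.45) and 195 and 271 CPM in lymphatic endothelium (-0.47). The core proteins Uqcrc1 and Uqcrc2 and the Rieske protein Uqcrfs1 stayed within -0.36 and 0.16 outside neutrophils. Uqcrb, which contacts the ubiquinone pocket, ran the other way, with 203 and 169 CPM in fibroblasts (0.26) and 326 and 240 CPM in smooth muscle (0.44).

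Within complex V the catalytic core differed little outside neutrophils. Atp5b, the beta subunit that makes ATP, had 319 and 311 CPM in fibroblasts (0.04) and 525 and 586 CPM in smooth muscle (-0.16), and Atp5a1, the alpha subunit, had ratios from -0.16 to 0.02 outside neutrophils. The small subunit Atp5e, the epsilon of the rotor stalk, was higher in each class, with 451 and 350 CPM in fibroblasts (0.36) and 522 and 373 CPM in smooth muscle (0.48). Others of complex V, such as Atp5l and Atp5o, were higher in each class too. Of the 3 genes that code for the same c-ring protein, Atp5g1 had ratios from 0.05 to 0.28, Atp5g2 from 0.08 to 0.53 and Atp5g3 from 0.16 to 0.40 outside neutrophils. Atp5d, the delta subunit, lay below 0 in the 6 classes other than neutrophils, at -0.14 in fibroblasts and -0.32 in Schwann cells.

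In complex IV the small subunits Cox6c, whose exons overlap Vps13b on the other strand, and Cox7b were higher in all 7 classes. Cox6a1, Cox7a2 and Cox7c were too. Cox6c had 537 and 379 CPM in fibroblasts (0.50), 606 and 427 CPM in blood endothelium (0.50) and 802 and 544 CPM in smooth muscle (0.56), and Cox7b had 186 and 153 CPM in fibroblasts (0.28), 148 and 93.7 CPM in blood endothelium (0.66) and 150 and 87.1 CPM in Schwann cells (0.78). Cox5a, which sits on the matrix side of the core, had 170 and 234 CPM in lymphatic endothelium (-0.46) and 121 and 140 CPM in fibroblasts (-0.21), while neutrophils, at 103 CPM in each library, did not part. In smooth muscle the ratio of Cox5a was -0.04 and lay above 0, at up to 0.21, under 3 of the 14 other settings. Cox4i1, the common form of the largest nuclear subunit, had 526 and 564 CPM in fibroblasts (-0.10) and 810 and 686 CPM in smooth muscle (0.24). Cox7a2l had 253 and 337 CPM in fibroblasts (-0.41) and 419 and 427 CPM in blood endothelium (-0.03).

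**Figure D4:**
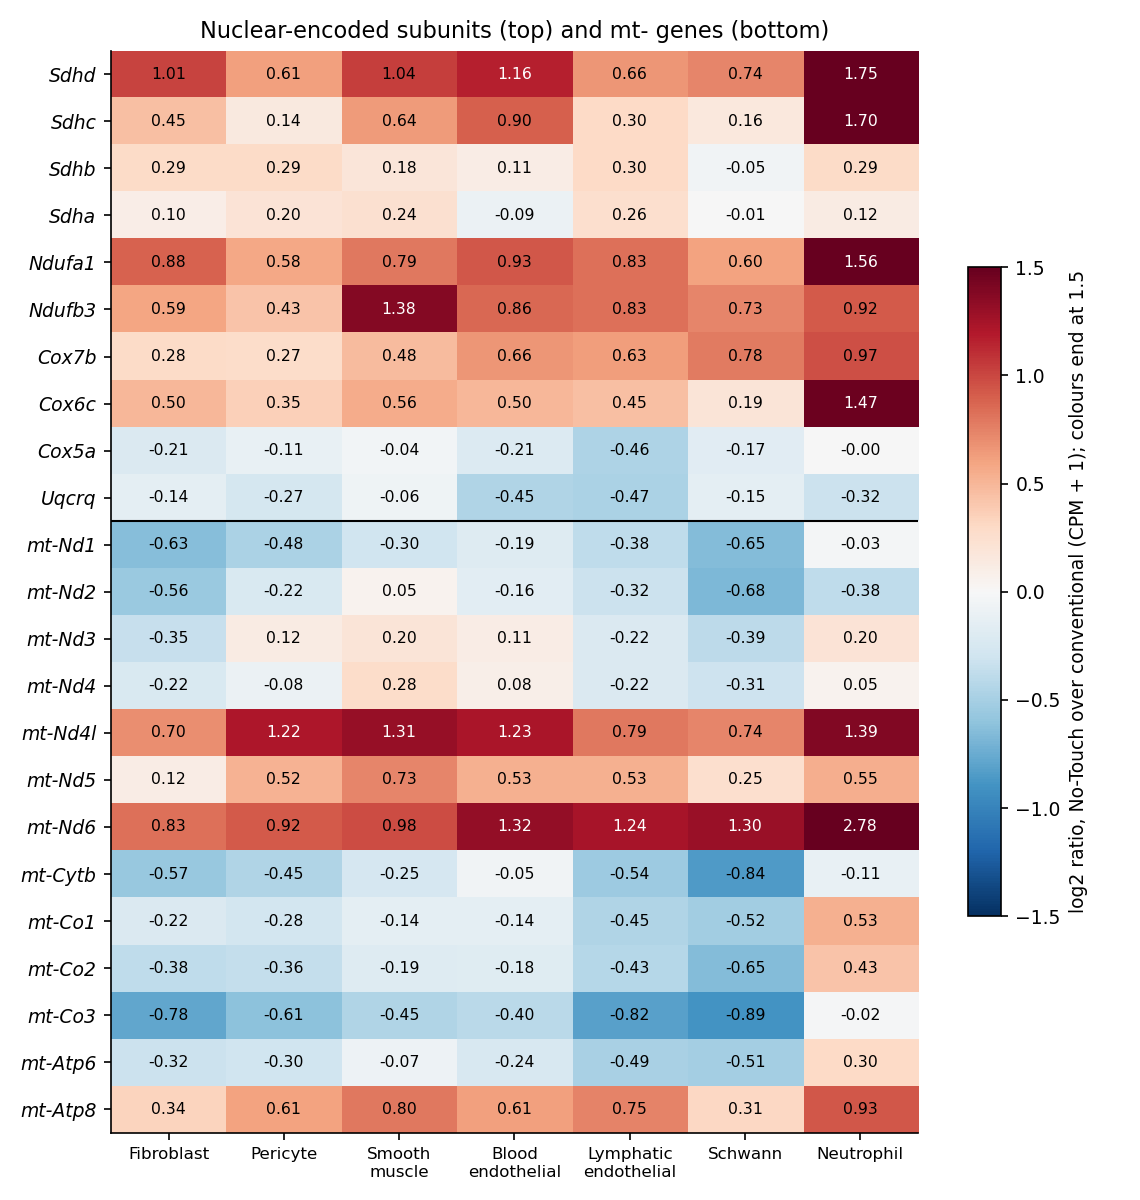
Log2 ratio of No-Touch over conventional CPM + 1 (colour and number) for the 4 complex II genes and 6 further nuclear-encoded subunits above the line and the 13 mt- genes below it, in 7 classes. Sdhd, Sdhc, Ndufa1, Ndufb3, Cox7b and Cox6c lie above 0 in every class. The gene mt-Co3 is blue in every class but neutrophils (-0.02), while mt-Nd6, mt-Nd4l and mt-Atp8 are red in every class.

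Isoforms of complex IV parted the mural cells, pericytes and smooth muscle, from the rest in both libraries. Cox4i2, the isoform associated with oxygen sensing, had 159 CPM in No-Touch and 160 CPM in conventional pericytes, and 68.6 and 98.3 CPM in smooth muscle. In the 7 other classes it lay at 0.00 to 3.03 CPM. With each cell thinned to 3000 UMIs, 85 of 244 No-Touch pericytes (34.8%, exact 95% interval 28.9 to 41.2) and 169 of 526 conventional pericytes (32.1%, 28.2 to 36.3) held a Cox4i2 UMI, against 67.2% and 57.9% unthinned. In blood endothelium the thinned counts were 0 of 365 (exact 95% interval up to 1.01%) and 1 of 739 (up to 0.752%). Median depths were 13107.5 and 9095 UMIs in pericytes and 19995 and 12937 UMIs in blood endothelium, so the share in pericytes was above that of a deeper class.

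Ndufa4l2, the paralogue of Ndufa4 that is induced at low oxygen (chr10:127514967-127517154, plus strand, with Shmt2 exons on the other strand), followed the same classes. It had 294 and 351 CPM in pericytes, 135 and 210 CPM in smooth muscle and 43.6 and 61.8 CPM in fibroblasts, and at most 6.58 CPM in the other classes. Ndufa4 itself (chr6:11900292-11907497, minus strand), the common subunit of complex IV, had its lowest level of the 7 classes in pericytes of both libraries, at 30.5 and 23.9 CPM. Smooth muscle had 297 CPM in the No-Touch and 109 CPM in the conventional library, a log2 ratio of 1.44, and blood endothelium had 175 and 103 CPM (0.76). Fibroblasts had 153 and 119 CPM (0.36), and Schwann cells, at 148 and 150 CPM, did not part beyond the counting intervals.

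The makeup of the smooth muscle class moved with these isoforms. The 6 pericyte markers summed to 1965 CPM in No-Touch and 3388 CPM in conventional smooth muscle, and the 6 smooth muscle markers to 20600 and 15761 CPM. The part of that makeup in the differences of Ndufa4, Ndufa4l2 and Cox4i2 was not tested. Among smooth muscle cells without a Cox4i2 UMI, 179 No-Touch and 206 conventional cells, Ndufa4 had 337 and 147 CPM and Ndufa4l2 had 27.9 and 104 CPM. Among cells with a Cox4i2 UMI, 132 and 207, Ndufa4 had 242 and 69.6 CPM and Ndufa4l2 had 284 and 319 CPM. Rgs5, a pericyte marker, stood at 2883 and 3358 CPM in the cells with a Cox4i2 UMI and at 547 and 1848 CPM in those without. In both libraries Ndufa4 was thus the lower and Ndufa4l2 the higher in smooth muscle cells in which Cox4i2 was seen, and the same held in pericytes, at 26.4 and 19.4 CPM of Ndufa4 with a Cox4i2 UMI and 40.8 and 30.4 CPM without. Fibroblasts ran the other way for Ndufa4, at 181 and 154 CPM with a Cox4i2 UMI and 152 and 118 CPM without. Those with a Cox4i2 UMI were only 121 No-Touch and 135 conventional cells. Their median depths were 36798 and 24566 UMIs, against 31103 and 19424 UMIs in those without. Rgs5 stood at 32.9 and 91.4 CPM with and at 7.98 and 27.5 CPM without. The part of depth and of Rgs5 in this difference was not tested.

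**Figure D5:**
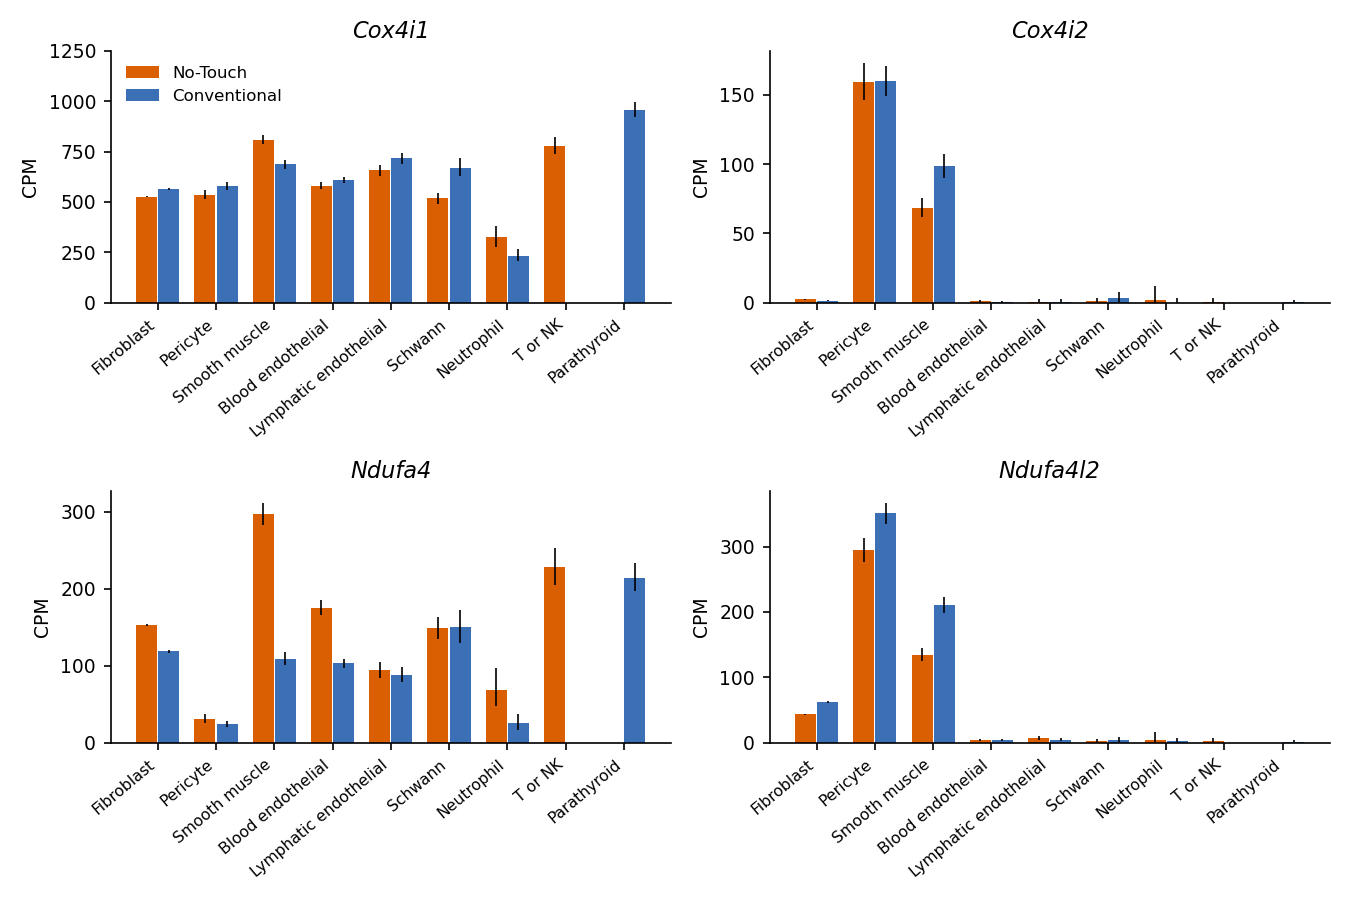
Level in CPM of Cox4i1, Cox4i2, Ndufa4 and Ndufa4l2 in 9 classes, No-Touch in orange left of conventional in blue, with exact 95% counting intervals; a class with under 50 cells in a library has no bar. Cox4i2 and Ndufa4l2 are high in pericytes (159 and 160 CPM, 294 and 351 CPM) and next highest in smooth muscle, and Ndufa4 is low in pericytes (30.5 and 23.9 CPM).

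Other tissue isoforms were low in most classes. In smooth muscle Cox7a1, the heart and muscle form, had 3.33 and 2.80 CPM, against 362 and 252 CPM of its common form Cox7a2. Cox6a2, the muscle form of Cox6a1, had 1 UMI in smooth muscle of each library, where Cox6a1 had 339 and 247 CPM. Cox7a1 was highest in Schwann cells, at 7.45 and 12.9 CPM, and Cox6a2 in parathyroid cells of the conventional library, at 30.1 CPM. Cox6b2, known from testis, had 15.8 and 16.5 CPM in pericytes, against 175 and 166 CPM of Cox6b1. Cox8c had no UMI in any class, and Cox7b2 and Cox8b stayed below 1 CPM.

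The mt- genes did not move as a unit. In fibroblasts mt-Co3, a core subunit of complex IV, had 2900 and 4979 CPM (-0.78), mt-Nd1, a membrane subunit of complex I, 992 and 1539 CPM (-0.63), and mt-Cytb, cytochrome b of complex III, 1642 and 2440 CPM (-0.57). In the same cells mt-Nd6 had 21.9 and 11.9 CPM (0.83) and mt-Nd4l 216 and 133 CPM (0.70). These complex I genes and mt-Atp8 were higher in the No-Touch library in all 7 classes, and so was mt-Nd5, at 188 and 173 CPM in fibroblasts (0.12). In fibroblasts the 4 are low in count beside mt-Co1, at 2616 and 3043 CPM, so that they hardly enter the sum. Several of them abut or overlap a neighbouring mt- gene, or lie on the other strand as mt-Nd6 does, and no source used here says whether counting took account of strand. In smooth muscle 7 of 13 mt- genes lay above 0 (median 0.05), against 4982 of all 8986 genes. In blood endothelium 6 of 13 did (median -0.05), against 4908 of all 8594 genes. The summed mt- genes of complex I were higher in No-Touch in both, at 9293 and 8516 CPM in smooth muscle and 5145 and 5036 CPM in blood endothelium.

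Over the classes the members' levels were far from uniform. Parathyroid cells of the conventional library had the largest share, 2.13% members and 3.88% mt- genes, and T or NK cells of the No-Touch library had 1.82% and 1.83%. Among the classes in both libraries smooth muscle had the highest share of members and neutrophils the lowest, in each library. Ndufa8, an accessory subunit of complex I, was the highest in blood endothelium in both libraries, at 194 and 174 CPM, against 80.0 and 67.1 CPM in lymphatic endothelium and 80.2 and 68.3 CPM in fibroblasts. Cox5a had 455 CPM in T or NK cells and Ndufb7 191 CPM, against medians over the No-Touch classes of 158 and 78.0 CPM. In parathyroid cells Atp5e had 1041 CPM and Ndufa12 266 CPM, against medians over the conventional classes of 338 and 86.1 CPM.

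Neutrophils gave the widest ratios and the thinnest data. Their median depth was 4535 UMIs in the No-Touch and 2691.5 UMIs in the conventional library, with a median of 16 and 10 members detected per cell. Ndufs3, an iron-sulphur protein arm subunit of complex I, had 27.9 and 5.91 CPM from 13 and 6 UMIs, Atp5g2 had 140 and 39.4 CPM and Atp5mpl, a small ATP synthase protein, 122 and 34.5 CPM. On the other side stood Ndufa12, at 12.9 and 29.5 CPM, and Ndufb9, at 83.8 and 109 CPM. Of 83 cytosolic ribosomal protein genes 54 were higher and 0 lower in this class, against 35.7% and 14.3% of all genes. The summed fibroblast markers were 2144 and 1425 CPM. The part of depth and of the fibroblast markers in these ratios was not tested. The count of 42 members higher became 26 with TMM scaling (34.2%, against 23.6% of all genes) and 21 with the mean over cells (27.6%, against 29.2% of all genes).

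Related gene lists were read beside the members. Of assembly factors, which build the complexes but do not stay in them, 1 of 29 was higher and 1 lower in fibroblasts, where 7.12% of all genes were higher. Pericytes had 5 of 30 higher and 2 lower (10.2% of all genes higher), smooth muscle 7 of 33 and 1 (14.2%), blood endothelium 7 of 31 and 1 (11.2%) and lymphatic endothelium 6 of 31 and 2 (10.0%). Schwann cells had 9 of 36 and 2 (14.3%) and neutrophils 12 of 21 and 2 (35.7%). Of all genes 3.43%, 4.69%, 10.5%, 5.59%, 6.95%, 8.48% and 14.3% were lower in this order of classes. The medians of the assembly factors in the same order were 0.12, 0.25, 0.32, 0.31, 0.16, 0.19 and 0.74. Cox16, needed for complex IV assembly, was at least 1.5 times higher in all 7 classes, with 65.4 and 41.8 CPM in fibroblasts (0.63). Atpaf2, an assembly factor of ATP synthase, had 12.7 and 5.30 CPM in pericytes (1.12). It lay at 3.94 to 9.09 CPM in the conventional classes, so it was counted in 6 classes only through the No-Touch library. Timmdc1, at 10.7 and 0.985 CPM in neutrophils, was likewise counted there through No-Touch alone. On the other side stood Sco2, which carries copper to complex IV, below 0 in all 7 classes, with 12.2 and 18.9 CPM in fibroblasts (-0.60). Ttc19, an assembly factor of complex III, was lower past 1.5 times in 3 classes, with 42.9 and 91.9 CPM in pericytes (-1.08), 35.3 and 64.0 CPM in smooth muscle (-0.84) and 33.5 and 62.8 CPM in Schwann cells (-0.89). The citrate cycle had 0 of 15 genes past 1.5 times either way in fibroblasts (median 0.07), where 7.12% of all genes were higher and 3.43% lower. Of the regulators of mitochondrial gene expression 0 of 7 passed in fibroblasts (median 0.06), 0 of 10 in smooth muscle and 0 of 8 in blood endothelium. Of all genes 7.12%, 14.2% and 11.2% were higher in these classes and 3.43%, 10.5% and 5.59% lower. In pericytes 1 of 10 regulators was higher and in lymphatic endothelium 1 of 9, against 10.2% and 10.0% of all genes. Schwann cells had 6 of 13 higher and 1 lower, against 14.3% and 8.48% of all genes. Among the 6 was Tfam, which packs mitochondrial DNA, at 45.1 and 25.7 CPM (0.78), and the 1 lower was the coactivator Ppargc1a, at 6.70 and 21.2 CPM (-1.53). Tfb1m (10.8 and 5.30 CPM) and Tfb2m (11.5 and 5.30 CPM), also of the 6, reached 10 CPM in No-Touch alone, and Ppargc1a in the conventional library alone. These levels rest on 238 and 153 Schwann cells. Neutrophils had 3 of 8 regulators higher and 2 lower, against 35.7% and 14.3% of all genes. Cycs, cytochrome c itself, had 84.1 and 98.1 CPM in fibroblasts (-0.22). The mitochondrial ribosome had 3 of 74 higher and 1 lower in fibroblasts (median 0.01), against 7.12% and 3.43% of all genes.

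Glycolysis lay on the other side. In fibroblasts 0 of 16 genes were higher and 6 lower, against 7.12% and 3.43% of all genes, with a median log2 ratio of -0.48. The lactate exporter Slc16a3 had 10.4 and 29.2 CPM (-1.41), Hk2, which phosphorylates glucose, 171 and 280 CPM (-0.71), Eno1 80.1 and 139 CPM (-0.79) and Pkm 185 and 290 CPM (-0.65). The median of the list was below 0 in all 7 classes, from -0.48 to -0.11, while that of the members was above 0 in 6.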

How the data were processed

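The authors deposited filtered UMI counts per gene and cell for 1 No-Touch and 1 conventional library. The matrix headers name Cell Ranger 6.0.0, while the submitters' processing notes name Cell Ranger 3.1.0 and mm10. No source used here says whether counting took account of strand, and 26 of the 85 members overlap exons of a gene on the other strand and 4 those of a gene on their own strand, so the reads of these genes may be split or shared. Overlaps were searched only among genes typed as protein-coding, lincRNA, antisense or processed transcript. Cells with at least 500 genes, 1000 UMIs and at most 10% mt- UMIs were kept, and Scrublet (scanpy 1.11.5) scores removed 9.39% of No-Touch and 9.10% of conventional cells, the top of each library at 0.8% per 1000 barcodes.

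A cell entered a class with at least 3 of its markers at 2 or more UMIs, the class being that with the largest part of its list so seen. Cells with 3 markers of the pericyte or the smooth muscle list were split by which list had more UMIs, so such a cell need not pass its own list. Cells with 3 parathyroid markers went there even where the other epithelial list scored higher. Fibroblasts needed fibroblast markers at 0.5% of their UMIs. 174 No-Touch and 239 conventional cells lay between 0.4% and 0.6%. This rule was set after seeing the data, 778 and 357 fibroblasts with markers of another class were left out, and 370 and 632 cells had no class. Counts were summed per class and library and divided by all UMIs of the class (CPM). Ratios are log2 of CPM + 1 in No-Touch over conventional, for genes with at least 10 CPM in either library. With 1 library per group no test was run. Shares of cells carry exact Clopper-Pearson intervals.

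Named members are the extremes of the ratio in each class among members of at least 20 CPM, the widest spread over classes, and isoforms. Of these, 1 member is not reported here. The members and the gene lists were chosen with earlier results of these data known. Alternatives changed the mitochondrial limit, the total, the scaling (TMM and median of ratios, edgeR 4.0.16), the minimum CPM, doublet removal, depth (cells thinned to 3000 UMIs, those with fewer left out), weighting, the gate and the cells used. The calculations were tested on simulated counts with 200 changed genes. Gene positions are from GENCODE on the mouse build that mm10 names, and promoters from RefSeq. Python 3.11.15, numpy 2.4.6, scipy 1.17.1, pandas 2.3.3 and R 4.3.3 were used.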

Additional observations from a re-analysis of the deposited data

How the results depend on the processing

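No paired analysis was possible because each group is 1 library. Over 14 other settings the summed members were higher in No-Touch in every setting in 5 classes, and in 13 settings in pericytes and 10 in Schwann cells. The summed mt- genes were lower in every setting in 6 classes and higher in 9 settings in neutrophils. Dropping the minimum CPM or setting it at 50 CPM only selects genes. Those settings cannot move a summed share or the ratio of a single member, though they are counted here and below. Counts of members or of classes gave 224 values, of which 194 stayed within 1.5 times and 30 did not. Of 294 summed or median ratios 180 stayed within counting error (medians within 0.1) and 114 moved, and of 3052 ratios of single members 2864 stayed, 185 moved and 3 reversed. With TMM scaling the members called higher were 0 in pericytes (7.29% of all genes) and 5 in smooth muscle (6.25% against 11.3%). They were 5 in blood endothelium (6.49% against 8.06%) and 26 in neutrophils (34.2% against 23.6%). Those called lower were 2 in smooth muscle and 4 in neutrophils, against 13.4% and 24.6% of all genes. Median-of-ratios scaling gave 0 higher in pericytes, against 8.09% of all genes. In pericytes the count higher was 1 without a mitochondrial limit, with a 5% limit, with a total without mt- genes, with a minimum of 50 CPM, without Scrublet and with a fibroblast cut of 0.3%. Of all genes 6.75% to 10.5% were higher under these settings. Thinned pericytes had 5 higher, 6.25% against 15.9% of all genes. Thinned smooth muscle had 18 higher and 3 lower, against 21.1% and 14.4% of all genes. With the mean over cells 15 were higher there, 18.75% against 16.4% of all genes. A fibroblast cut of 0.3% gave 0 lower and cells with a Y-linked UMI and no Xist UMI 2 lower, against 11.9% and 10.3% of all genes. Neutrophils had 23 higher and 0 lower with a minimum of 50 CPM, against 24.8% and 15.1% of all genes. With the mean over cells 21 were higher, 27.6% against 29.2% of all genes. They had 4 lower both when thinned and among cells with a Y-linked UMI and no Xist UMI, against 19.9% and 22.9% of all genes. With no minimum CPM 2 were lower in lymphatic endothelium and 4 in Schwann cells, against 4.79% and 7.37% of all genes. Schwann cells had 1 lower with a 5% mitochondrial limit, a minimum of 50 CPM, a fibroblast cut of 0.3% or cells with a Y-linked UMI and no Xist UMI. Of all genes 6.85% to 10.4% were lower under these settings. Thinning also left out cells under 3000 UMIs, 2 No-Touch and 229 conventional neutrophils among them. In neutrophils Atp5g1 turned to -0.24 when thinned, and Ndufa10 to -0.33 when thinned and -0.046 with the mean over cells. TMM scaling moved the median of all genes to -0.03 in neutrophils, against 0.28, to -0.06 in blood endothelium, against 0.07, and to -0.02 in pericytes, against 0.08. The causes were not tested. The depth limits neutrophils most, where 18 and 11 UMIs stood behind Sdhd. The 2 fibroblast cuts and the cells with a Y-linked UMI were added after seeing the data.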

Other observations

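Cycling fibroblasts, those with at least 2 UMIs of Mki67 or Top2a, were few, 145 in the No-Touch and 62 in the conventional library. Members made up 1.497% of No-Touch and 1.501% of conventional UMIs in them (95% intervals 1.49 to 1.51 and 1.49 to 1.52), against 1.22% and 1.15% in the other fibroblasts. Per cell the median share was 1.44% (quartiles 1.22 and 1.66) in No-Touch and 1.26% (0.951 and 1.71) in conventional cycling fibroblasts, against 1.17% and 1.05% in the others. The mt- genes took 1.71% and 2.54% in cycling and 1.70% and 2.30% in other fibroblasts. Cycling cells were also the deeper, with medians of 50218 and 35316.5 UMIs, against 30984 and 19439.5 UMIs in the others.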
